A study of Mus musculus with 8 samples.

Results

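The 10 genes described here encode the insulin receptor (Insr), the insulin-like growth factor 1 (IGF1) receptor (Igf1r), the insulin receptor substrates Irs1 and Irs2, and the IGF-binding proteins Igfbp2, Igfbp3, Igfbp4, Igfbp5, Igfbp6 and Igfbp7. They were picked by symbol, as a gene family, and make up 10 of the 49492 gene rows of the expression table. Of these, 8 reached the level needed for testing, a value of 1 or more in 2 or more of the 8 samples. Igfbp2 and Igfbp3 did not reach it and are described from their reads.

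PolyA RNA was measured by RNA-seq in mouse embryonic fibroblasts (MEFs), connective tissue cells grown from embryos and here made immortal by the 3T3 protocol. The question was which transcripts depend on 2 arginines of Pontin (gene Ruvbl1), a chromatin-remodeling ATPase, when glucose is removed. All cells were Pontin f/f MEFs that stably expressed a lentiviral, Flag-tagged Pontin and had lost their endogenous Pontin through a Cre virus. The WT cells carried the wild-type form and the RA cells the form with alanine in place of both arginines, and each was kept in normal or in glucose-starved medium, which gave 4 groups with 2 samples each. As each genotype is 1 stable line, the line and the form of Pontin cannot be told apart. Starvation medium held dialyzed serum, and whether the cells in normal medium also received it is not given in the sources used here, and the part of the serum in the response was not tested. The time of starvation of these samples is not given either. The methods speak in general terms of repeated independent experiments, but no label or method ties the 2 samples of a group to separate cultures, so the p-values measure only the spread between these samples, which may be technical.

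Insulin and the IGFs bind receptor tyrosine kinases on the cell surface, which phosphorylate the IRS docking proteins. These recruit PI3-kinase and so switch on AKT, a kinase that promotes glucose uptake and growth and keeps FOXO transcription factors out of the nucleus. Secreted IGFBPs hold IGFs outside the cell and, depending on the protein and on its cleavage by proteases, limit or prolong their access to the receptor.

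Values are CPM, which are reads divided by the size of the library, and the sizes were scaled by the authors. The samples held 43205841 to 56363034 reads, and 3 reads, taken as the smallest number that can be told from 0, correspond to a value of 0.0548 to 0.069. Fibroblast markers fitted the label, with 11 of 12 over the testing level. Of the markers of other cells, 0 of 6 for skeletal muscle, 0 of 6 for adipocytes, 2 of 7 for epithelium, 2 of 6 for endothelium and 3 of 6 for macrophages passed it. Myod1, Myog, Krt5 and Krt14 were at 0 in all samples, the epithelial sum was 1.48 to 3.68 and the macrophage sum 20.7 to 25.5, led by Csf1r at 10.4 to 20.1. The endothelial sum was 2.09 to 3.44 in normal medium, 8.92 to 9.43 in starved WT and 6.03 to 6.38 in starved RA. In WT this rise came from Kdr (2.26 and 1.73 to 6.24 and 6.54) and Tek (0.304 and 0.242 to 3.06 and 2.32). Pecam1 fell there from 0.478 and 0.302 to 0.0838 and 0.0548, and Cdh5 from 0.348 and 0.242 to 0.0419 and 0. The macrophage marker Cd14 was lower, and Csf1r higher, in every starved sample than in normal medium. The summed fibroblast markers lay at 8549 to 8852 in normal medium, at 3421 to 3476 in starved WT and at 4494 to 4495 in starved RA. Not every fibroblast marker fell. In RA Dcn rose from 13.3 and 13.8 to 35.9 and 33.9, and Thy1 stayed at 274 to 283. Of 5 smooth muscle and pericyte markers 4 passed. Their sum, mostly Acta2, was 4121 to 4253 in starved RA against 1540 to 2216 in all other samples. Acta2 at 3734 to 3865 and Cnn1 at 242 to 250 were highest in starved RA, while Mcam stood at 137 and 144 there against 226 and 234 in RA in normal medium and Rgs5 did not pass. The part of these shifts in the results below was not tested, and in bulk RNA fewer cells of a type and less RNA per cell cannot be told apart. Ruvbl1 itself read 28.4 and 27.6 in WT and 36.8 and 32.0 in RA in normal medium, and 27.9 and 28.4 in WT and 45.0 and 42.9 in RA under starvation. Reads of the endogenous and the introduced gene add up in this value, so it does not check the genotype labels. In the means Ruvbl1 was 1.23-fold higher in RA in normal medium and 1.56-fold higher under starvation. Its level and the form of Pontin cannot be told apart between the genotypes.

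Under starvation WT and RA cells differed in most of these genes. Igf1r fell in starved WT and rose in starved RA, Igfbp5 fell in WT and was not called in RA, Igfbp4 and Igfbp7 rose in both and further in RA, Irs1 fell strongly in both, and Irs2 was called higher in WT alone. All 8 tested members were called in WT, 4 higher and 4 lower, where 78.6% of all 16232 tested genes were called, 39.3% higher and 39.2% lower (limma, Benjamini-Hochberg (BH) adjusted p under 0.05). In RA 6 were called, 4 higher and 2 lower, against 68.7% of all genes, 35% higher and 33.7% lower. The difference between the responses, which is the interaction of genotype and medium, was called for 7 members, 5 with a higher and 2 with a lower response in RA, against 50.6% of all genes, 24.5% higher and 26.1% lower. With backgrounds this high, such counts are no result about the family, and the sizes and directions of the single genes carry the description.

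**Figure D1:**
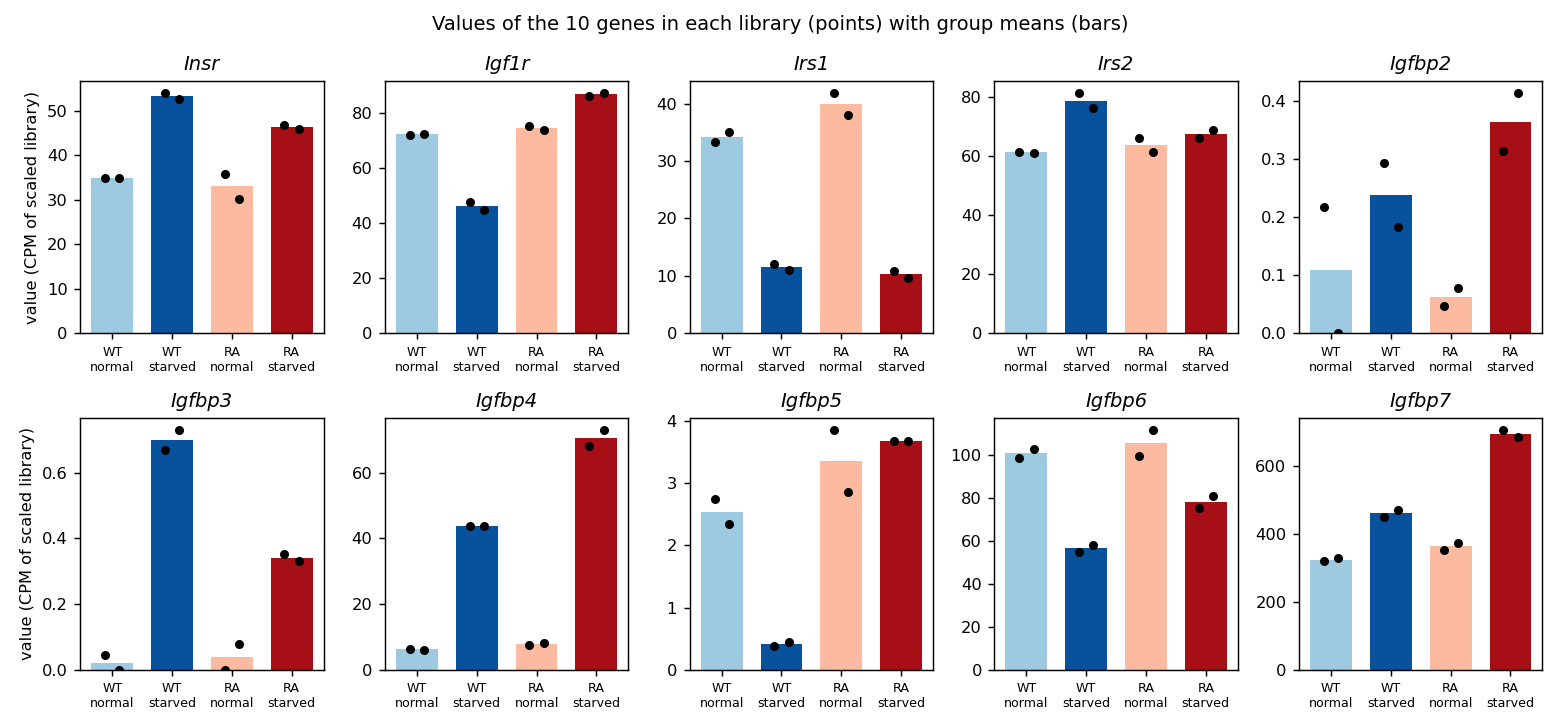
Expression values (y axis, CPM of the scaled library size, a separate linear scale for each gene) of the 10 genes in the 8 samples, with each point a sample and the groups along the x axis. Igf1r stood at 44.7 to 47.8 in starved WT and at 86.3 to 87.3 in starved RA, and Igfbp5 at 0.377 to 0.438 and at 3.68.

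The receptors responded in different ways. Igf1r, which binds IGF1 and IGF2, stood at 72.1 and 72.5 in WT in normal medium, at 47.8 and 44.7 in starved WT, at 75.4 and 73.8 in RA in normal medium and at 86.3 and 87.3 in starved RA. The starved WT samples were the lowest and the starved RA samples the highest, and both stood clear of the samples in normal medium. Starvation lowered Igf1r 1.56-fold in WT, a log2 difference of -0.63 ± 0.045 (SE, limma BH-adjusted p = 8.79e-10), and raised it 1.16-fold in RA (0.22 ± 0.045, adjusted p = 4.45e-04). The difference between the responses was 0.85 ± 0.064 (limma BH-adjusted p = 1.27e-08).

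Insr, the receptor with high affinity for insulin, stood at 34.7 and 34.9 in WT in normal medium, at 54.0 and 52.7 in starved WT, at 35.9 and 30.1 in RA in normal medium and at 46.7 and 45.9 in starved RA. All starved samples were above all samples in normal medium, and the genotypes overlapped in normal medium. Insr rose 1.53-fold in WT (log2 difference 0.60 ± 0.065, limma BH-adjusted p = 2.14e-07) and 1.40-fold in RA (0.48 ± 0.065, adjusted p = 4.80e-06). The responses differed by -0.12 ± 0.092 (limma BH-adjusted p = 0.297) and were called different only without the second RA sample in normal medium (-0.24, adjusted p = 0.0147), the lowest of the 8.

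The ratio of Igf1r to Insr was taken on reads, not per length. In WT it dropped with starvation, the means being 2.08 ± 0.0016 before and 0.867 ± 0.027 after (mean ± SD, n = 2). The RA means were 2.27 ± 0.25 and 1.87 ± 0.038, where Igf1r and Insr both rose.

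The docking proteins went in opposite directions in WT. Irs1 stood at 33.3 and 35.1 in WT in normal medium, at 11.99 and 10.9 in starved WT, at 41.9 and 38.0 in RA in normal medium and at 10.9 and 9.54 in starved RA. Every starved sample was below every sample in normal medium. The fall was 2.98-fold in WT (log2 difference -1.50 ± 0.080, limma BH-adjusted p = 1.60e-11) and 3.91-fold in RA (-1.87 ± 0.080, adjusted p = 1.92e-12). The difference of -0.37 ± 0.11 between the responses was called (limma BH-adjusted p = 0.0119), but not with every gene in the test (adjusted p = 0.0503). It was also lost without the first WT or the first RA sample in normal medium or the second starved RA sample (adjusted p = 0.0516 to 0.066).

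Irs2 stood at 61.5 and 61.2 in WT in normal medium, at 81.4 and 76.3 in starved WT, at 66.1 and 61.3 in RA in normal medium and at 66.3 and 68.8 in starved RA. The starved WT samples were the highest, and the RA samples in either medium lay close together. Starvation raised Irs2 1.29-fold in WT (log2 difference 0.36 ± 0.049, limma BH-adjusted p = 4.13e-06). In RA the ratio was 1.06 (0.084 ± 0.049, adjusted p = 0.139), and without the first RA sample in normal medium this was called (limma BH-adjusted p = 0.0359). The responses differed by -0.27 ± 0.070 (limma BH-adjusted p = 0.00374).

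The makeup of the IRS transcripts shifted toward Irs2 in both genotypes. The ratio of Irs2 to Irs1 reads was 1.80 ± 0.074 in WT and 1.60 ± 0.026 in RA in normal medium, and 6.89 ± 0.14 and 6.65 ± 0.80 under starvation (mean ± SD, n = 2). Strand handling in the counting is not given in the sources used here, and in the gene models of GENCODE M21 a gene on the opposite strand, Gm9747, overlaps 30.9% of the Irs1 exon length. Gm9747 was also lower in every starved sample, with 14.05 and 15.9 against 4.36 and 3.85 in WT, and 18.5 and 19.7 against 4.84 and 3.68 in RA. Reads of the pair cannot be told apart within the shared stretch.

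The bases upstream of Irs1, Irs2 and Igfbp4 are shown because the IRS genes share a motif but moved apart in WT, and because Igfbp4 rose most of the tested members. They come from the RefSeq table of promoters (GRCm38.p6), which had windows for 9 of the 10 genes, and run over the 250 bases before the annotated start, 5′ to 3′ on the strand of the gene. These are chr1:82291440-82291689 (minus strand), chr8:11008930-11009179 (minus strand) and chr11:99040994-99041243 (plus strand). Capitals mark CACGTG, a core that E-box factors such as TFEB can bind, in Irs1 and Irs2, and TATAAA, the TATA box letters, in Igfbp4.
Irs1: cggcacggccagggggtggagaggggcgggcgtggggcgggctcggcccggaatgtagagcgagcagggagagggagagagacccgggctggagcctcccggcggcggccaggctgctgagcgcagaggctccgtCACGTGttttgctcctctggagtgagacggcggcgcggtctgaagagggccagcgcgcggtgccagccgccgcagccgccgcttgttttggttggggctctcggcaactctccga
Irs2: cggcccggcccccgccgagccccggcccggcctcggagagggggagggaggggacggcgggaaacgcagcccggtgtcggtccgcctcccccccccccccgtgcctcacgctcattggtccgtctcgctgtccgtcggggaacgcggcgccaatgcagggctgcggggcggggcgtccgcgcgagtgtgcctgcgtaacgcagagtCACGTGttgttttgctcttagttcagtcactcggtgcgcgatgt
Igfbp4: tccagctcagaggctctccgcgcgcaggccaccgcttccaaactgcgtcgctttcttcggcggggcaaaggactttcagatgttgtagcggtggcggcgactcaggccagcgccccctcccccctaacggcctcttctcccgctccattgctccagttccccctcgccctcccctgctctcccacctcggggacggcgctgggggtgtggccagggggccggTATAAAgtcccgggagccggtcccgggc

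CACGTG, which reads the same on both strands, began 115 bases before the start of Irs1 and 44 before that of Irs2, and was also found 142 before that of Igfbp2. It was in 7.15% of all 32851 windows of 300 bases and in 9.68% of the windows of tested genes. GTAAACA, the letters of a forkhead site, and TGATGNAA, those of a stress-response site, were searched on both strands and were in 0 of the 10 windows of the family, against 3.65% and 3.97% of all windows. TATAAA was added after the values were seen. It began 28 bases before the start of Igfbp4 and was on the opposite strand 148 bases before that of Igfbp6, against 13.6% of all windows. CACGTG thus stood before a gene that fell and a gene that rose, and a match is only a description of these letters.

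Among the tested binding proteins, Igfbp4 rose most. This protein holds IGFs away from their receptor until the protease PAPP-A cuts it. Igfbp4 stood at 6.35 and 6.09 in WT in normal medium, at 43.7 and 43.9 in starved WT, at 7.40 and 8.02 in RA in normal medium and at 68.2 and 73.1 in starved RA. The groups were fully apart, and every starved sample was at least 43.7. The rise was 7.05-fold in WT (log2 difference 2.63 ± 0.070, limma BH-adjusted p = 1.25e-15) and 9.16-fold in RA (3.04 ± 0.070, adjusted p = 8.52e-16). The RA response was the higher by 0.41 ± 0.099 (limma BH-adjusted p = 0.00280).

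Igfbp7, a secreted relative that binds IGFs weakly, had the highest level of the family per length. It stood at 320 and 327 in WT in normal medium, at 449 and 470 in starved WT, at 352 and 374 in RA in normal medium and at 706 and 683 in starved RA. Starved samples were above unstarved ones, with the starved RA samples far above all others. The rise was 1.42-fold in WT (log2 difference 0.50 ± 0.041, limma BH-adjusted p = 4.79e-09) and 1.91-fold in RA (0.94 ± 0.041, adjusted p = 2.50e-12), and the responses differed by 0.43 ± 0.058 (adjusted p = 1.05e-05). On the opposite strand, exons of Polr2b overlap 7.03% of the Igfbp7 exon length.

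Igfbp6, which prefers IGF2, fell in both genotypes. It stood at 98.8 and 103 in WT in normal medium, at 55.1 and 58.4 in starved WT, at 99.6 and 112 in RA in normal medium and at 75.4 and 81.3 in starved RA. The starved RA samples lay between the starved WT samples and those in normal medium. Igfbp6 fell 1.78-fold in WT (log2 difference -0.82 ± 0.056, limma BH-adjusted p = 4.50e-10) and 1.35-fold in RA (-0.43 ± 0.056, adjusted p = 3.22e-06), and the responses differed by 0.39 ± 0.079 (adjusted p = 5.57e-04).

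Igfbp5, a binding protein that is also held in the extracellular matrix, was low and had the largest difference between the responses among the 8 tested members. It stood at 2.74 and 2.34 in WT in normal medium, at 0.377 and 0.438 in starved WT, at 3.86 and 2.87 in RA in normal medium and at 3.68 and 3.68 in starved RA. The starved WT samples rest on 18 and 24 reads and the other samples on 116 to 188. Only the starved WT samples stood apart, and in RA the groups overlapped. The mean fell 6.23-fold in WT (log2 difference -1.33 ± 0.14, limma BH-adjusted p = 1.14e-07). In RA the difference was 0.11 ± 0.14 (limma BH-adjusted p = 0.492), and the responses differed by 1.44 ± 0.19 (adjusted p = 1.16e-05). The added 1 in log2(value + 1) shrinks changes at such levels, and edgeR on the recovered reads gave -2.66 in WT and 2.79 between the responses (BH-adjusted p = 3.28e-06).

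**Figure D2:**
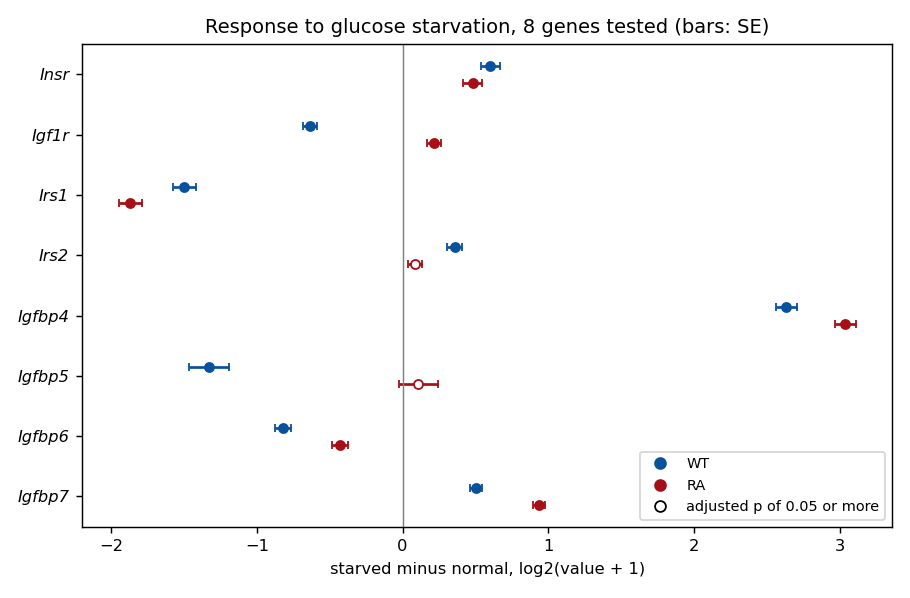
Difference between starved and normal medium on the log2(value + 1) scale (x axis) for the 8 tested genes in WT and in RA, with bars for the SE of the limma fit and open points where the adjusted p was 0.05 or more. Igf1r lay at -0.63 in WT and at 0.22 in RA, Igfbp5 at -1.33 and 0.11, and Igfbp4 at 2.63 and 3.04.

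Igfbp2 and Igfbp3 were close to the limit of detection. Igfbp3, the main carrier of IGFs in serum, had 2 and 0 reads in WT in normal medium, 32 and 40 reads in starved WT, 0 and 4 in RA in normal medium and 18 and 16 in starved RA. All starved samples had more reads than all samples in normal medium. The rate in starved WT was 33.6 times that in normal medium (95% exact interval from reads counted as pairs 5.66 to 1363, counting error only), and in RA the ratio was 8.13 (1.93 to 72.5). With every gene above 0 in the test, an alternative chosen after seeing the data, edgeR called the rise in WT (log2 difference 4.90, BH-adjusted p = 2.43e-08) and in RA (2.97, adjusted p = 7.61e-04) but not the difference between the responses (-1.94, adjusted p = 0.390). The limma fit with no filter did call that difference (-0.37, BH-adjusted p = 0.0119), as for 23.4% of all genes, so its call depends on the test. In the edgeR test 44.7% of genes were called in WT, 37.2% in RA and 26.6% between the responses.

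Igfbp2 had 10 and 0 reads in WT in normal medium, 14 and 10 reads in starved WT, 2 and 4 in RA in normal medium and 16 and 20 in starved RA. The WT groups overlapped and the RA groups did not. The starved to normal ratio was 2.24 in WT (95% exact interval 0.734 to 8.11) and 5.74 in RA (1.67 to 30.4), and edgeR with every gene called the difference in RA alone (BH-adjusted p = 0.0141 against 0.317 in WT). The difference between these responses was not called (adjusted p = 0.553).

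The summed value of the 6 binding proteins stood at 429 and 439 in WT in normal medium, at 549 and 573 in starved WT, at 463 and 497 in RA in normal medium and at 854 and 842 in starved RA. Igfbp7 supplied 74.6% to 82.7% of these reads in every sample, on a scale that is not per length. The share of Igfbp6 was 21.5% to 23.5% in normal medium and 8.83% to 10.2% under starvation. That of Igfbp4 was 1.39% to 1.61% in normal medium and 7.66% to 8.69% under starvation. In both genotypes the share of Igfbp6 was lower and that of Igfbp4 higher under starvation. The sum did not overlap between the genotypes in either medium, and neither did the share of Igfbp6. This share was 23.1% and 23.5% in WT and 21.5% and 22.6% in RA in normal medium. Under starvation it was 10.03% and 10.2% in WT and 8.83% and 9.65% in RA. The lower share in starved RA stood beside a 1.38-fold higher Igfbp6 value. For comparison, 81.5% of all tested genes did not overlap between the genotypes under starvation.

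Levels of different genes were compared per kilobase of exon (GENCODE M21 exon union). Igfbp7 came first and Igfbp6 second in each of the 4 groups, at 268 and 90.8 per kilobase in WT in normal medium. Irs2 at 9.70, Igf1r at 4.31, Irs1 at 3.74, Insr at 2.53, Igfbp4 at 1.41 and Igfbp5 at 0.423 followed there, with Igfbp2 and Igfbp3 last.

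Starvation reordered the middle of this list. Igfbp4 moved from seventh to the fourth place in WT, at 9.92 per kilobase, and to the third in RA, at 16.0. Irs1 went from the fifth to the seventh place in both genotypes, at 1.25 and 1.12. In starved WT Insr at 3.88 was above Igf1r at 2.75, and in starved RA Igf1r at 5.17 was above Insr at 3.37. Igfbp5 was last of the 10 in starved WT, at 0.0679, and eighth in starved RA, at 0.613.

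**Figure D3:**
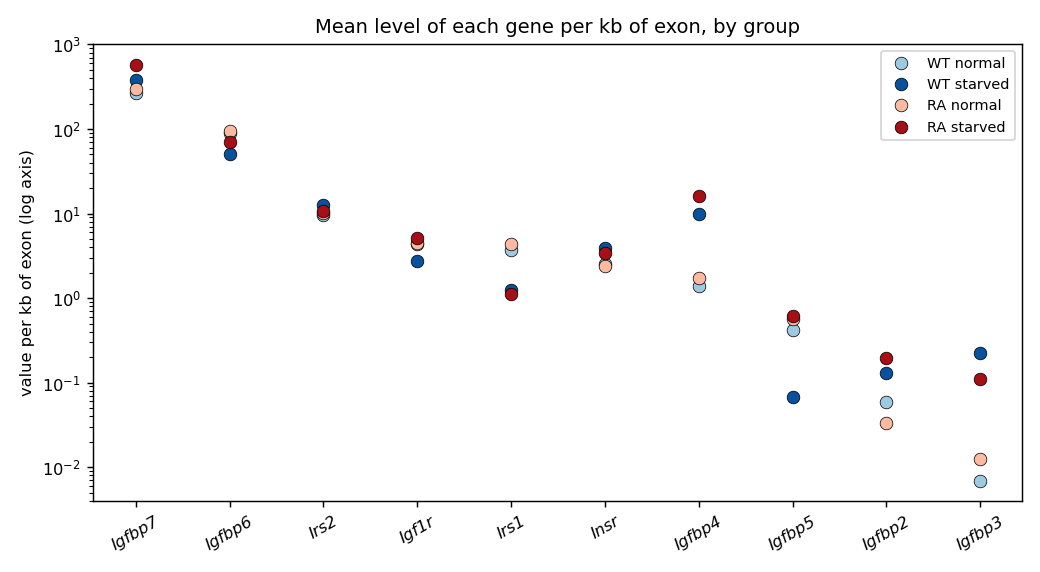
Group mean values per kilobase of exon (log scale) for the 10 genes in the 4 groups. Igfbp7, at 268 to 574 per kilobase, and Igfbp6, at 51.0 to 95.1, stayed above the other genes, and Igfbp4 stood at 1.41 and 1.75 in normal medium and at 9.92 and 16.0 under starvation.

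In normal medium 2 of the 8 tested members were called between WT and RA, both higher in RA. This is 25% of the 8, where 9.63% of all genes were called, 6.68% higher and 2.95% lower. The median difference over the 8 was 0.11, beside 0.0075 over all tested genes. Over all genes 69.4% of the calls were higher in RA, and 40.5% with samples scaled to their total reads. Igfbp4 was 1.24-fold higher in RA (log2 difference 0.27 ± 0.070, limma BH-adjusted p = 0.0224) and Igfbp7 1.12-fold (0.16 ± 0.041, adjusted p = 0.0183). Neither call held without either WT sample in normal medium or without the second RA sample (limma BH-adjusted p = 0.0692 to 0.126 for Igfbp4 and 0.0749 to 0.174 for Igfbp7). Insr was called lower in RA without the first RA sample (-0.20, limma BH-adjusted p = 0.0395), and Irs1 was called higher in RA when the compared groups alone were fitted (0.22, adjusted p = 0.0440). The same fit did not call Igfbp4 (0.27, limma BH-adjusted p = 0.148), and neither Igfbp4 nor Igfbp7 was called with no filter or without the trend.

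Under starvation 7 of the 8 were called between the genotypes, against 62.9% of all genes, 30.8% higher and 32.1% lower. The 5 that were higher in RA were Igfbp5 (9.02-fold in the means, log2 difference 1.73 ± 0.14, limma BH-adjusted p = 9.61e-09), Igf1r (1.88-fold, 0.90 ± 0.045), Igfbp4 (1.61-fold, 0.68 ± 0.070), Igfbp7 (1.51-fold, 0.59 ± 0.041) and Igfbp6 (1.38-fold, 0.46 ± 0.056). Irs2 was 1.17-fold lower in RA (-0.22 ± 0.049, limma BH-adjusted p = 9.39e-04) and Insr 1.15-fold lower (-0.20 ± 0.065, adjusted p = 0.0136). The call of Insr was lost without the first starved WT sample (adjusted p = 0.0723) or the second starved RA sample (adjusted p = 0.0719), with no filter (adjusted p = 0.0680) and without the trend (adjusted p = 0.0653). Irs1 differed by -0.15 ± 0.080 (limma BH-adjusted p = 0.106), and was called without the first starved RA sample (adjusted p = 0.0387) or with quantile normalization (adjusted p = 0.00278). None of the 8 tested members overlapped between the genotypes here, as for 81.5% of all genes. The median difference over the 8 was 0.53, beside -0.0081 over all tested genes.

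For Igfbp3 the order was the other way. Starved RA had 34 reads against 72 in starved WT, a ratio of 0.486 (95% exact interval 0.256 to 0.889, counting error only), and edgeR over every gene did not call it (log2 difference -1.03, BH-adjusted p = 0.163), where it called 34.4% of all genes. The limma fit with no filter called Igfbp3 lower in RA (-0.34, BH-adjusted p = 0.00194), as it did 31.9% of all genes in either direction. The comparison of the genotypes under starvation and the responses to starvation share their starved samples, so these values are the same measurements seen from another side.

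**Figure D4:**
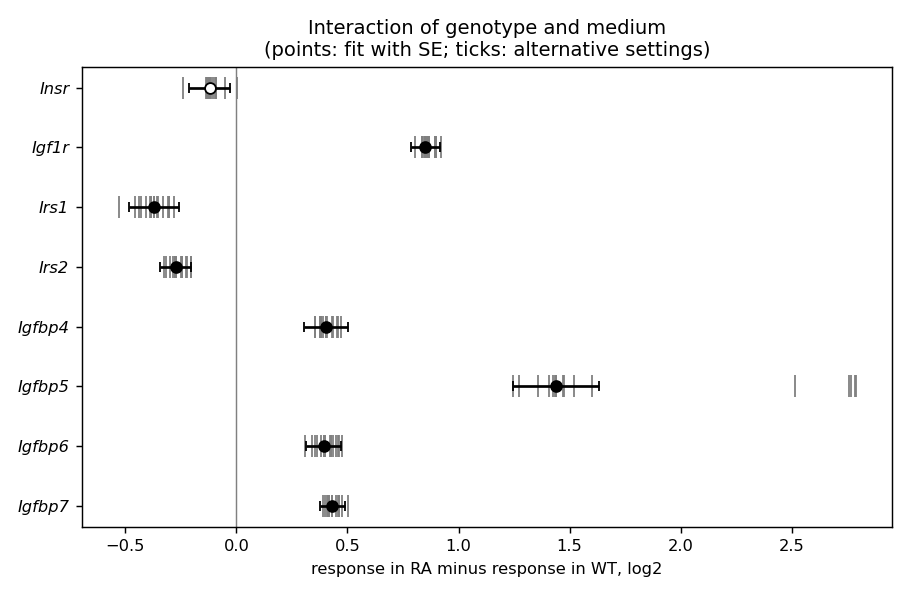
Difference between the RA and the WT response to starvation (x axis, log2 scale) for the 8 tested genes under each setting of the analysis, with the value of the limma fit marked. Igf1r at 0.85 and Igfbp5 at 1.44 stayed above 0 in every setting, and Insr at -0.12 lay nearest to 0.

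The order of the 4 groups took a few forms in the family. In Igf1r and Igfbp5 starved WT was lowest, and for Igfbp5 the samples of the other groups lay between 2.34 and 3.86. In Igfbp4 and Igfbp7 the order rose from WT to RA in normal medium and on to starved WT and starved RA. Insr had starved WT first, starved RA second and the cells in normal medium last, with the genotypes overlapping there, and Irs2 had starved WT first and the other groups close together.

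Across the 8 samples the genes most like each member were found by Pearson's r on log2(value + 1), as a description, since the samples fall into 4 groups and share their libraries. Igf1r was most like Osmr and Fam46b, both at r = 0.999, and Igfbp4 most like Sqstm1, the autophagy receptor p62, and Dennd1a, also at 0.999. Igfbp5 was most like Ifit2 (0.994) and Ndufb2 (0.993), Igfbp6 like Mum1l1 (0.998) and Prkcdbp (0.997), and Igfbp7 like Phc1 (0.997) and Nedd4l (0.996). Irs1 was most like Enoph1 and Minos1 (0.996 each), Irs2 like Klhl12 (0.989) and Edem3 (0.987), and Insr like Dgat1 (0.995) and Dyrk2 (0.994). Such patterns were common, as 231 to 1073 of 10497 compared genes (10498 for Igfbp5) had an r above 0.95 with a given member. Within the family Igf1r and Igfbp5 had an r of 0.974 and Irs1 and Igfbp4 of -0.981.

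The other genes of the pathway came from a list of 47, of which 36 were tested. In WT 34 were called, 15 higher and 19 lower, and in RA 30, 12 higher and 18 lower. These are 94.4% and 83.3% of the 36 tested, against 78.6% and 68.7% of all tested genes. The medians were -0.20 and -0.12 on the log2 scale, beside 0.0049 and 0.013 over all tested genes. The responses differed for 20, 11 higher and 9 lower in RA. Between the genotypes 4 were called in normal medium, 11.1% against 9.63% of all genes, and 22 under starvation. The shares of 55.6% called between the responses and 61.1% called under starvation lie near the backgrounds of 50.6% and 62.9%. The 11 untested genes were Ins1, Ins2, Igf2, Insrr, Igfbp1, Igfals, Igfbpl1, Irs3, Irs4, Inpp4b and Pappa2, of which Ins1 and Igfbp1 were at 0 in every sample.

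Of the ligands Igf1 alone was tested, and it fell in both genotypes, while Igf1r fell in WT and rose in RA. It stood at 2.65 and 3.43 in WT in normal medium, at 0.168 and 0.0365 in starved WT, at 1.84 and 2.09 in RA in normal medium and at 0.196 and 0 in starved RA. Starved samples were all below 0.2. They rest on 8 and 2 reads in WT and on 10 and 0 in RA, where 3 reads were taken as the limit. The samples in normal medium had 80 to 170 reads. The log2 difference was -1.87 ± 0.15 in WT and -1.44 ± 0.15 in RA (limma BH-adjusted p = 4.07e-09 and 2.08e-07), and the responses differed by 0.43 ± 0.21 (adjusted p = 0.101). The added 1 shrinks these changes, as for Igfbp5. In the means Igf1 was 29.8-fold lower in starved WT and 20.1-fold lower in starved RA. Other settings gave log2 differences down to -4.96 in WT and -4.33 in RA. Igf2r, which takes IGF2 up for degradation, rose in both, by 0.80 ± 0.046 in WT and 0.61 ± 0.046 in RA (adjusted p = 4.76e-11 and 3.46e-09).

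Of the proteases of ligands and binding proteins and their inhibitors, Pappa and Stc2 rose in both genotypes. Pappa, the protease that cuts Igfbp4, had means of 10.9 in WT and 11.0 in RA in normal medium and of 23.3 and 47.0 under starvation. Its log2 differences were 1.02 ± 0.073 in WT and 2.0 ± 0.073 in RA, which differed by 0.98 ± 0.10 (limma BH-adjusted p = 7.81e-07). Stc2, a secreted inhibitor of that protease, rose from a mean of 3.02 to 45.0 in WT and of 3.13 to 29.8 in RA, and here the RA response was the lower by 0.62 on the log2 scale (-0.62 ± 0.13, limma BH-adjusted p = 6.99e-04). Of the 5 tested genes of this group 4 rose and 1 fell in each genotype, where 39.3% and 39.2% of all genes were called higher and lower in WT and 35% and 33.7% in RA. The order between the genotypes under starvation was thus RA above WT for Igfbp4, Pappa and Htra1 and WT above RA for Stc2 and Ide. Stc1 was not called there (limma BH-adjusted p = 0.308).

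Among 12 adaptors and regulators of the receptors, all were called in WT, 5 higher and 7 lower, and 9 in RA, 3 higher and 6 lower, against 78.6% and 68.7% of all genes. Grb14, an adaptor that restrains the insulin receptor, stood at 10.6 and 11.5 in WT in normal medium, at 6.03 and 6.72 in starved WT, at 11.8 and 13.3 in RA in normal medium and at 13.9 and 15.4 in starved RA. As for Igf1r, starved WT was the lowest group and starved RA the highest. Grb14 fell by 0.71 on the log2 scale in WT (limma BH-adjusted p = 3.64e-06), differed by 0.21 ± 0.097 in RA (adjusted p = 0.0634), and its responses differed by 0.92 ± 0.14 (adjusted p = 3.28e-05). Socs1, a feedback inhibitor of cytokine and insulin signaling, fell in both, by 1.64 in WT and by 0.79 in RA on the log2 scale, and the responses differed by 0.85 ± 0.15 (limma BH-adjusted p = 1.29e-04).

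Of the 6 PI3-kinase subunits 4 fell and 1 rose in each genotype, which is 83.3% called against 78.6% of all genes in WT and 68.7% in RA. Pik3r1, the main regulatory subunit, fell by 0.95 in WT and by 0.38 in RA, and Pik3cb, a catalytic subunit, by 1.25 and by 0.94, on the log2 scale. The responses differed by 0.57 ± 0.082 and 0.30 ± 0.079 (limma BH-adjusted p = 2.34e-05 and 0.00399). Akt2, an AKT kinase with a known role in insulin-driven glucose uptake, had 0.010 ± 0.049 in WT (limma BH-adjusted p = 0.853), with the sign turned by total-read scaling and some other settings, and -0.11 ± 0.049 in RA (adjusted p = 0.0462). The call of Akt2 in RA was lost under several settings, among them no filter (limma BH-adjusted p = 0.0947).

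Of 7 phosphatases and AKT inhibitors all were called in WT, 3 higher and 4 lower, and 5 in RA, 2 higher and 3 lower, which is 71.4% of them in RA, against 78.6% and 68.7% of all genes. Trib3 had the largest response of the 7 in both genotypes. Its means were 20.9 in WT and 27.1 in RA in normal medium and 227 and 344 under starvation. It rose by 3.38 ± 0.044 in WT and 3.62 ± 0.044 in RA on the log2 scale (limma BH-adjusted p = 1.73e-19 and 6.58e-19). The Trib3 responses differed by 0.24 ± 0.062 (limma BH-adjusted p = 0.00407). Phlpp2, which removes phosphate from AKT, fell by 0.72 in WT and by 0.47 in RA on the log2 scale. Pik3ip1, a membrane protein that restrains PI3-kinase, stood at 4.94 and 5.08 in WT in normal medium, at 3.77 and 3.12 in starved WT, at 4.71 and 4.92 in RA in normal medium and at 6.40 and 5.16 in starved RA. It fell by 0.44 on the log2 scale in WT (limma BH-adjusted p = 0.00370) and differed by 0.22 ± 0.12 in RA (adjusted p = 0.128), and the responses differed by 0.65 ± 0.17 (adjusted p = 0.00482). The fall of Pik3ip1 in WT was not called without the second starved WT sample (limma BH-adjusted p = 0.0510) or with quantile normalization (adjusted p = 0.0512).

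**Figure D5:**
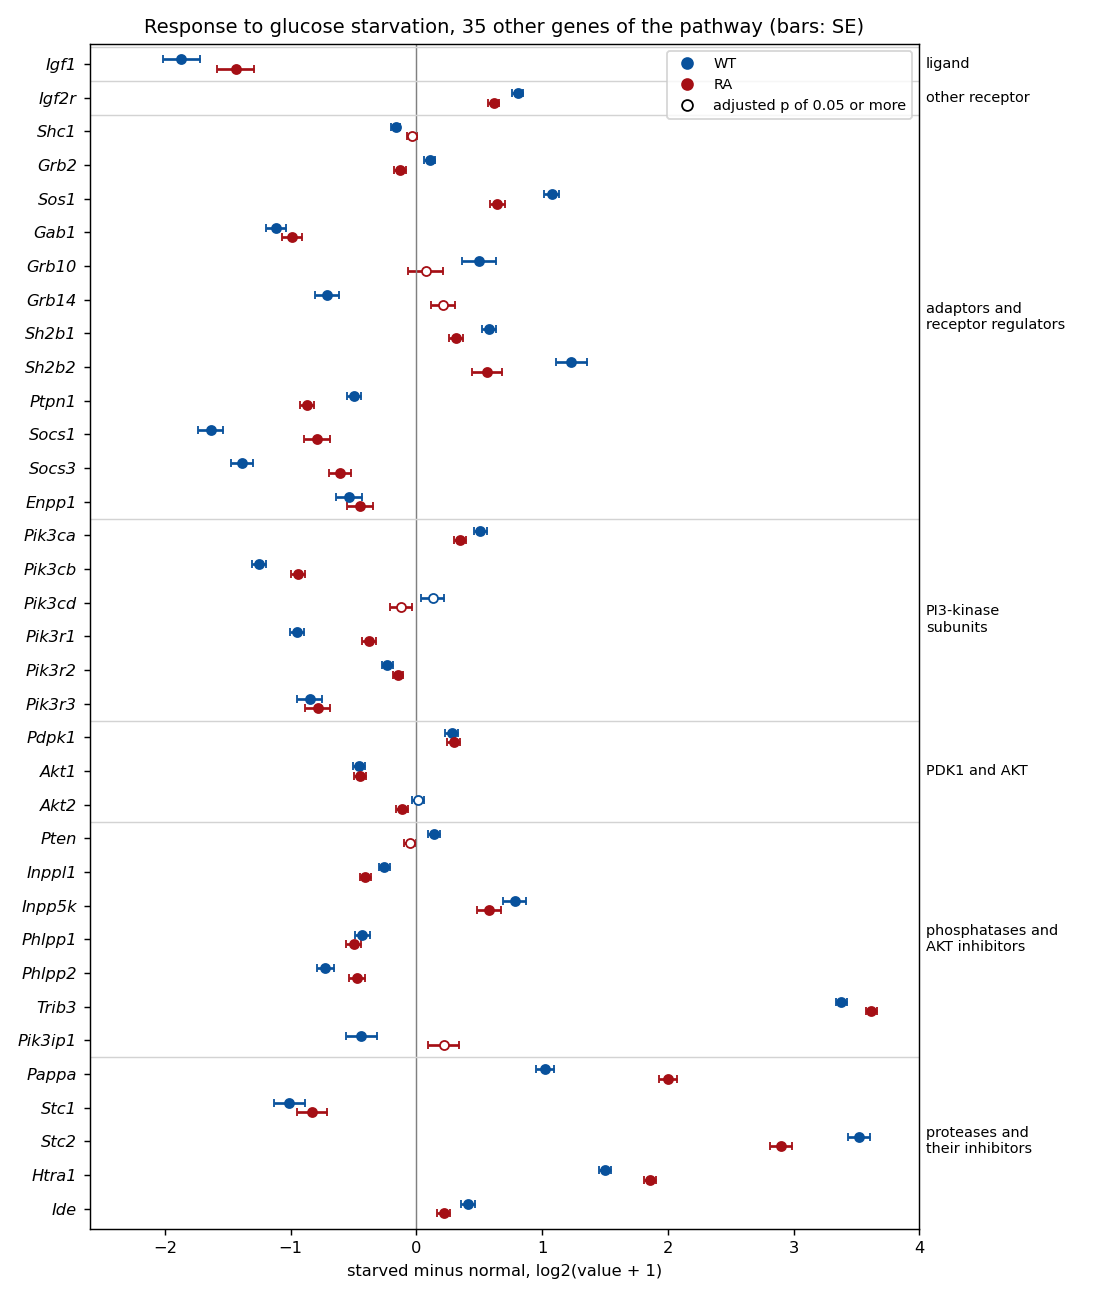
Difference between starved and normal medium on the log2(value + 1) scale (x axis) for 35 other tested genes of the pathway in WT and in RA, with SE bars and open points where the adjusted p was 0.05 or more. Stc2 lay at 3.52 in WT and 2.90 in RA, Pappa at 1.02 and 2.0, and Igf1 at -1.87 and -1.44.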

How the data were processed

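RNA-seq libraries were prepared by the authors with the TruSeq kit, sequenced as read pairs, and mapped to mm9 with TopHat2 (version 2.0.9 in the submitters' processing notes, which also name bedtools and edgeR). The counter, annotation and strand handling are not given in the sources used here. The deposited signal is a read count in CPM, taken over a library size that the authors scaled. The columns named minus and plus were read as normal medium and starvation, which is an inference from these names. The directions of all responses to starvation rest on this reading. Groups came from the labels. CPM had been planned as the unit, and the same test was used. All nonzero values were whole reads within 0.01 read, and these recovered reads served edgeR (4.0.16) and DESeq2 (1.42.0). Of the recovered counts from 1 to 9, 78.2% to 80.5% were even, so edgeR was also run on halved reads, as were the intervals, which cover counting error only. The other columns of values numbered 0.

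The main test was limma (3.58.1, R 4.3.3) on log2(value + 1) over all 8 samples, with 1 mean per group, eBayes with trend, 2-sided p-values and BH adjustment over 16232 genes, called under 0.05. On this scale the change of low genes is understated. The script was tested on simulated data. Members and lists were chosen with earlier results of these data known. Trib3, Stc1, Htra1 and Ide were described outside the naming rule that follows. Named genes were the members, Ruvbl1, the 2 pathway genes per subgroup with the largest interaction difference (1 of these is not reported here), the untested pathway genes, and the 2 genes with the highest r per member among genes with a mean of at least 10. Alternatives were a pseudocount of 0.1, no filter, other scalings, a fit on the compared groups, the replicate block, no trend, a threshold of 1e-05, leaving out each sample, edgeR and DESeq2. Chosen after seeing the data were halved reads and edgeR on every gene above 0. Rows at 0 throughout numbered 18085, 26 had names turned into dates and 4 shared a name.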

Additional observations from a re-analysis of the deposited data

Results flagged for a closer look

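The following genes were picked out because the test of the difference itself found that the response to starvation differed between RA and WT (limma interaction, BH-adjusted p under 0.05, as for 50.6% of all genes). The differences, as RA response less WT response on the log2 scale, were 1.44 for Igfbp5, 0.85 for Igf1r, 0.43 for Igfbp7, 0.41 for Igfbp4 and 0.39 for Igfbp6. They were -0.37 for Irs1 and -0.27 for Irs2.

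Among the other genes of the pathway they were 0.98 for Pappa, 0.92 for Grb14, 0.85 for Socs1, 0.65 for Pik3ip1, 0.57 for Pik3r1, 0.30 for Pik3cb and 0.25 for Phlpp2, and -0.62 for Stc2 and -0.19 for Igf2r. Irs1, Igf2r and Phlpp2 lost their call under some settings at the 0.05 threshold, with adjusted p-values of up to 0.066, 0.179 and 0.194. The other genes named here were called under every alternative at that threshold, with adjusted p-values of up to 0.043. Groups of 2 samples are too small for a test of single samples that stand apart.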

How the results depend on the processing

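With groups of 2, calls in normal medium between the genotypes were the least stable. The count of 2 members called there became 0 with no filter or without the trend, 1 with total-read scaling or edgeR on halved reads, and 0 at a threshold of 1e-05 with limma or edgeR, and ran from 0 to 3 without single samples. For the pathway genes, 4 became 1 with no filter or without the trend, 0 at 1e-05 with either tool, and 1 to 4 without single samples. Over all genes the count of 1563 became 650 with no filter and 590 without the trend. At 1e-05, limma and edgeR called 8 and 9 pathway genes between the genotypes under starvation (22 at 0.05), 17 and 17 for starvation in RA (30), and 1 and 1 for the interaction (20), where members went from 7 to 1 and 3. Small differences changed sign. Without single samples, Insr in normal medium ran from -0.20 (without the first RA sample) to 0.042 (without the second), Igfbp6 from -0.020 to 0.15, Irs2 from -0.00036 to 0.11, Igfbp5 in RA from -0.055 to 0.27, the Insr interaction from -0.24 to 0.0019 and Akt2 in WT from -0.032 to 0.053. Igf1r in normal medium turned to -0.0029 with total-read scaling. Akt2 in WT turned to -0.057 with quantile and -0.062 with total-read scaling, to -0.027 with edgeR at either threshold and to -0.026 on halved reads. The cause was not tested. Of 872 alternative values for the members, 817 kept direction and call. Same-numbered samples deviated together with correlations of -0.0076 to 0.157. The numbers were taken as names only in the main fit, and whether same-numbered samples share a batch was not tested. With the replicate number as a block, 2, 7, 8, 6 and 7 members were called in the 5 comparisons, as without it. Grb14 in RA gained a call there (0.21, limma BH-adjusted p = 0.0399). Over all genes the block raised every count, from 1563 to 2059 between the genotypes in normal medium and from 8207 to 8578 for the interaction.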
